A study of Mus musculus with 6 samples.

Results

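Intracellular lipases take stored fat apart in a fixed order. Adipose triglyceride lipase (ATGL, gene Pnpla2) cuts triglyceride to diacylglycerol, hormone-sensitive lipase (Lipe) cuts diacylglycerol to monoacylglycerol, and monoacylglycerol lipase (Mgll) and ABHD6 (Abhd6) release the last fatty acid. ABHD5 switches ATGL on and G0S2 blocks it. The last step also ends signalling by the endocannabinoid 2-arachidonoylglycerol, so lipolysis and endocannabinoid breakdown share enzymes in the liver. The set described here holds 10 genes of these pathways, Abhd6, Mgll, Pnpla2, Lipe, Abhd5, G0s2, Ces1d, Daglb, Faah and Napepld, out of 17119 gene symbols in the count table. They were chosen by name, with the difference between the groups already known, and Abhd6 was among the few genes called higher. Values of the 10 genes in that contrast are therefore given as a description, and their adjusted p-values support nothing further.

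RNA was sequenced from 6 samples of whole mouse liver after 12 weeks on a high-fat high-cholesterol diet (HFHCD), which is used to bring on steatohepatitis. The 3 heterozygous samples were Clec4f-iCre;Cebpbfl/+, in which the resident liver macrophages (Kupffer cells) lose 1 copy of Cebpb. The 3 wild-type samples were Clec4f-iCre;Cebpb+/+ littermates, so all animals carried the Cre recombinase driven by the Clec4f promoter and all ate the diet. The genotype labels of replicates 2 and 3 count the driver's number upward, and the series design, which names Clec4f throughout, was followed. Age and sex are not in the labels, and 4 Y-linked genes had counts in all 6 libraries.

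Library totals lay between 16895322 and 17750755 counts. Cebpb, the targeted gene, stood at 204, 498 and 269 CPM (read counts scaled to a common library size with TMM factors) in heterozygous libraries and at 506, 308 and 340.4 CPM in wild-type libraries. The groups overlapped, and since most cells of the liver keep both copies this checks the labels weakly. Of all symbols, 12706 passed a filter on low counts and were tested with edgeR.

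Abhd6 and Pnpla2 lay apart between the groups in opposite directions, and the other 8 genes differed less or varied more between libraries. Abhd6 was 1.55-fold higher and Pnpla2 1.60-fold lower in heterozygous livers. All 10 genes passed the filter. Of these, 1 had an edgeR adjusted p below 0.05 (Abhd6, 0.0494), against 0.582% of all tested genes called in either direction and 0.0236% called higher, and since the set was chosen with this call known nothing is read from the share. DESeq2 called 2 (Abhd6 and Pnpla2), against 4.20% of all tested genes, and again nothing is read from it. Pnpla2 lay just outside the threshold with an edgeR adjusted p of 0.0539, in a band from 0.05 to 0.06 that held 81 genes. For 3 of the 10 genes no heterozygous library fell among the wild-type ones, against 18.4% of all tested genes: Abhd6 and Faah lay higher, as did 7.05% of all tested genes, and Pnpla2 lower, as did 11.3%. Log2 fold changes were positive for 7 of the 10, against 51.0% of all tested genes. The median log2 fold change of the set, heterozygous over wild type, was 0.21, against 0.00481 over all tested genes.

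**Figure D1:**
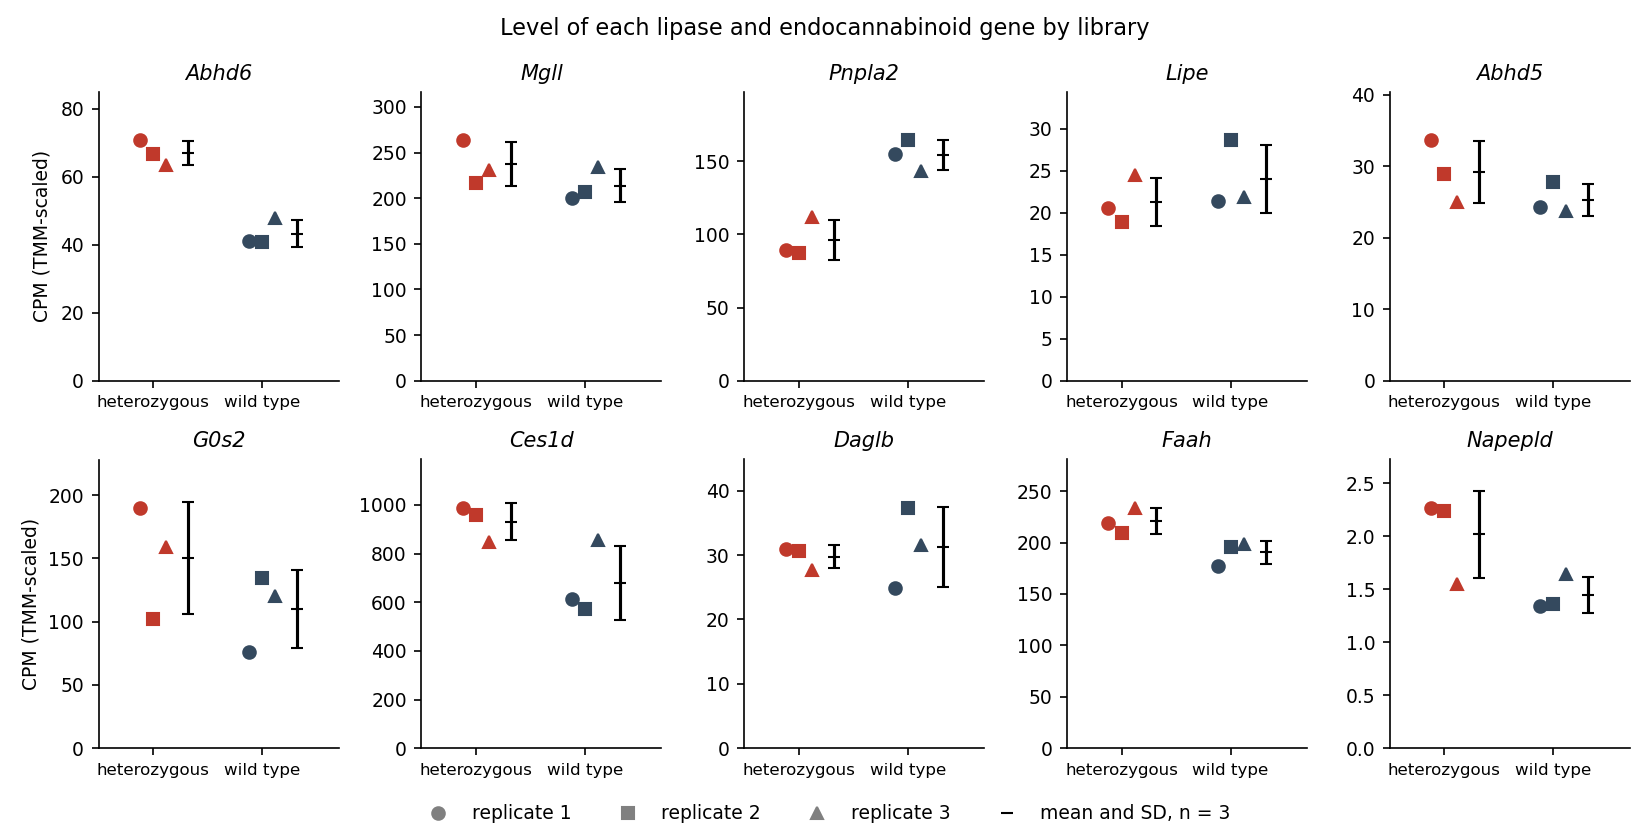
Level of each of the 10 genes in CPM (y axis, from 0) in heterozygous and wild-type livers, with 1 point per library and the mean with SD at the side (n = 3 each). The groups are apart for Abhd6, Pnpla2 and, by a small gap, Faah, and overlap for the other 7 genes.

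Abhd6 encodes a membrane-bound hydrolase that splits monoacylglycerols, including 2-arachidonoylglycerol, and bis(monoacylglycero)phosphate, a lipid of late endosomes. It measured 70.8, 66.7 and 63.5 CPM in heterozygous replicates 1, 2 and 3, against 41.2, 40.8 and 47.7 CPM in wild-type replicates 1, 2 and 3. The lowest heterozygous library was thus well above the highest wild-type library. The means were 67.0 ± 3.62 and 43.2 ± 3.89 CPM (SD, n = 3 each), with 1101 to 1215 reads behind each heterozygous value and 676 to 872 behind each wild-type value. The log2 fold change was 0.63 ± 0.11 (SE; 95% interval 0.38 to 0.88), and it placed Abhd6 at rank 72 of all tested genes by p. Its size hardly moved with the processing, with log2 fold changes of 0.60 to 0.71 over 15 alternatives. Its place below the threshold did move: DESeq2 gave an adjusted p of 0.000532, the fit with no filter on low counts also called it, and the other 13 alternatives did not, with adjusted p up to 0.218 in the edgeR fit without heterozygous replicate 1.

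Pnpla2, the gene of ATGL, which starts triglyceride breakdown, measured 89.2, 87.3 and 112 CPM in heterozygous replicates 1, 2 and 3. The wild-type replicates 1, 2 and 3 stood at 155, 164 and 144 CPM. Every heterozygous library was below every wild-type library, with heterozygous replicate 3 the closest. The means were 96.1 ± 13.7 and 154 ± 10.5 CPM (SD, n = 3 each) and the log2 fold change was −0.68 ± 0.13 (95% interval −0.97 to −0.39). Leaving out heterozygous replicate 3 gave −0.80 with an edgeR adjusted p of 0.0394, and DESeq2 gave −0.67 with an adjusted p of 0.00112, whereas 12 of 15 alternatives kept Pnpla2 above the threshold.

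**Figure D2:**
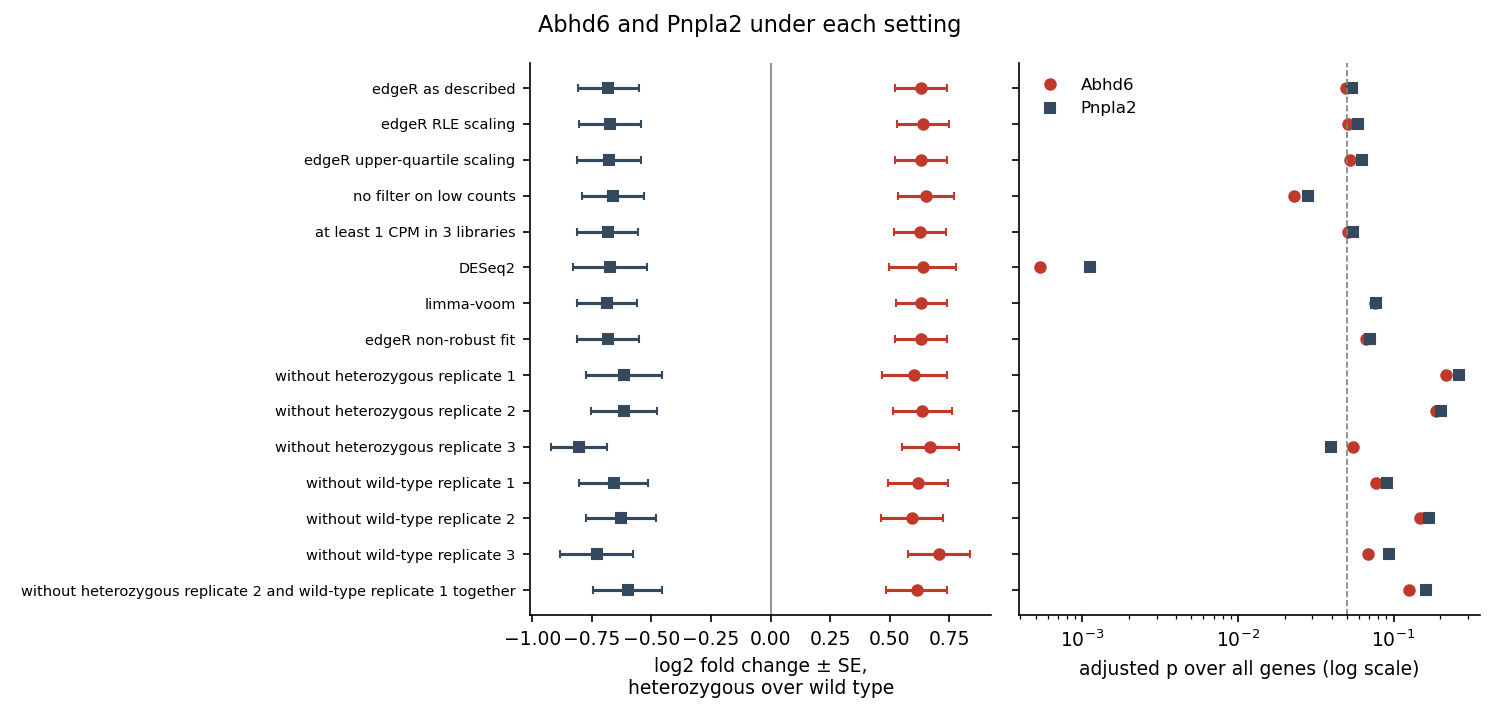
Left, log2 fold change with SE, heterozygous over wild type, of Abhd6 (circles) and Pnpla2 (squares) in the edgeR fit and in alternatives to it, including fits without single libraries; right, the adjusted p on a log axis with 0.05 dashed. The fold changes stay between 0.60 and 0.71 for Abhd6 and between −0.80 and −0.60 for Pnpla2, while the adjusted p crosses the threshold.

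ATGL is also present in macrophages, and summed markers of several cell types were lower in heterozygous libraries, as Pnpla2 was. The summed level of 12 markers of monocytes and recruited macrophages was 155 to 199 CPM in heterozygous libraries and 380.4 to 645 CPM in wild-type libraries, and all 12 had a negative fold change. The summed level of 12 Kupffer cell markers was 559 to 782 CPM in heterozygous libraries and 711 to 1102 CPM in wild-type libraries, with 10 negative and 2 positive fold changes, and the ranges overlapped. Most of that sum came from C6, Nr1h3 and Slc40a1, which overlapped between groups (log2 fold changes 0.10, −0.03 and −0.23). For 7 of the 12 Kupffer cell markers the heterozygous libraries all lay lower, against 11.3% of all tested genes. The groups lay apart for the sum of 11 lipid-associated macrophage markers (1216 to 1321 CPM in heterozygous and 1485 to 1634 CPM in wild-type libraries). Most of that sum came from the cathepsin genes Ctsb and Ctsd (log2 fold changes −0.22 and −0.25). All 11 fold changes were negative, and 6 of the 11 lay lower without overlap, against 11.3% of all tested genes. Trem2, Cd9, Mmp12, Lpl and Ctsd overlapped. The groups lay apart too for the sum of 10 stellate cell markers (376 to 537 CPM and 568 to 714 CPM). The stellate cell markers went both ways, with 7 negative and 3 positive fold changes. Without overlap, 4 of the 10 lay lower and 1 (Acta2) lay higher, against 11.3% and 7.05% of all tested genes. The 4 were Dcn, Col1a1, Col1a2 and Col3a1, which made up most of the sum. The groups also lay apart for the sums of 6 cholangiocyte markers (60.9 to 98.8 CPM in heterozygous and 106 to 155 CPM in wild-type libraries) and 8 markers of T, NK and B cells (8.60 to 10.5 CPM and 14.1 to 20.5 CPM). Most of the cholangiocyte sum was Spp1, which is also counted among the lipid-associated macrophage markers. Of the 5 tested cholangiocyte markers, Spp1 and Krt7 lay lower without overlap, against 11.3% of all tested genes, and Krt19, Sox9 and Epcam overlapped. Sums of 10 sinusoidal endothelium markers overlapped (313 to 422 CPM in heterozygous and 288 to 341 CPM in wild-type libraries). Of these markers 7 had a positive and 3 a negative fold change, and edgeR called none. Without overlap, 3 lay higher (Clec4g, Bmp2 and Fcgr2b) and 1 lower (Pecam1), against 7.05% and 11.3% of all tested genes. Sums of hepatocyte markers overlapped too, at 106600 to 130200 CPM in heterozygous and 97370 to 132500 CPM in wild-type libraries. The part of these cells in the Pnpla2 and Abhd6 differences was not tested, and in whole tissue fewer cells of a type and less RNA per cell cannot be told apart. Of the adipocyte markers, Adipoq, the adiponectin gene, was at 0 to 0.666 CPM in heterozygous libraries and at 0 to 0.163 CPM in wild-type libraries, and Plin1 was at 0 in 5 of 6 libraries. Lep was not analysed here, and the summed level of the 7 adipocyte markers, 6020 to 8134 CPM in heterozygous and 4933 to 5258 CPM in wild-type libraries, was mostly Car3, which hepatocytes also express.

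The starts of Abhd6 and Pnpla2 are shown because these genes differed most and in opposite directions between these groups. The 250 bases before the first annotated start of each were taken from RefSeq on GRCm38.p6, an older build than the GRCm39 of the count table. Both lie on the plus strand, at chr14:8002638-8002887 for Abhd6 and at chr7:141454938-141455187 for Pnpla2. Capitals mark matches on either strand to any of 5 motifs, the C/EBP core TTGCNNAA, the forkhead core GTAAACA, the E-box CACGTG, the GC box GGGCGG and the PPAR repeat, AGGTCA and AGGTCA with 1 base between them.
Abhd6: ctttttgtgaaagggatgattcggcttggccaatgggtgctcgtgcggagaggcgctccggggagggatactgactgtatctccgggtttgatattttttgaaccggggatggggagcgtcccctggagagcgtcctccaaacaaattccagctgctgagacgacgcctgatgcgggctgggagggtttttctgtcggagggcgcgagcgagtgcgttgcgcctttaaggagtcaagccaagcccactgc
Pnpla2: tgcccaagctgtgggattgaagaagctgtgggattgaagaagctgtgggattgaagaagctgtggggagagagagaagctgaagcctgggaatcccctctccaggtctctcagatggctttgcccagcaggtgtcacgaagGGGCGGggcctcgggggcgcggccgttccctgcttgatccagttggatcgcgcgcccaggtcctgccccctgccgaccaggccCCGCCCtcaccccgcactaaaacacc
The Abhd6 window printed held no match to these letters, but the window of a second annotated start of Abhd6, which overlaps it, held 1 GC box, 38 bases before that start. The Pnpla2 window held 2 GC boxes, starting 109 and 26 bases before the start. Of the 10 genes, 9 had an entry (not Ces1d), with 12 windows in all. The C/EBP core was in 0 of these 12 windows, against 9.56% of 32851 promoter windows of the same length. The GC box was in 7 of the 12 windows, against 32.7% of all windows. The forkhead core and the E-box were each in 2 of the 12 (both in Mgll and Lipe), against 3.17% and 6.02% of all windows, and the PPAR repeat was in 0, against 0.0335%. Genes with a pair of starts count with 2 windows, which can share bases.

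G0s2 and Abhd5, the regulators of ATGL in the set, had positive fold changes, but their intervals spanned both signs. G0s2 encodes a small inhibitor that binds ATGL. It stood at 190.2, 102 and 159 CPM in heterozygous replicates 1, 2 and 3, against 75.8, 135 and 120.4 CPM in wild-type replicates 1, 2 and 3. The groups overlapped, with heterozygous replicate 2 below 2 of the 3 wild-type libraries, and the log2 fold change of 0.45 ± 0.29 had an interval from −0.23 to 1.12. G0s2 was the most variable of the better expressed genes, and its fold change was 0.26 without wild-type replicate 1 and 0.66 without heterozygous replicate 2. In wild-type replicate 1, which had the lowest G0s2 level, the summed level of 15 acute phase genes was 69150 CPM, against 21780 to 34760 CPM in the heterozygous libraries and 25480 and 34460 CPM in the other wild-type libraries. The part of that response in the G0s2 values was not tested.

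Abhd5, which encodes the coactivator of ATGL, measured 33.7, 28.9 and 25.0 CPM in heterozygous replicates and 24.3, 27.9 and 23.7 CPM in wild-type replicates. The ranges overlapped (log2 fold change 0.21 ± 0.14, 95% interval −0.10 to 0.52).

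Since a ratio of 2 genes within a library does not depend on library scaling, Pnpla2 reads were also set against those of G0s2 and Abhd5. These are ratios of RNA reads, and protein was not measured. Pnpla2 reads per G0s2 read numbered 0.469, 0.853 and 0.706 in heterozygous replicates 1, 2 and 3 and 2.04, 1.22 and 1.19 in wild-type replicates 1, 2 and 3. Pnpla2 reads were thus fewer than G0s2 reads in all 3 heterozygous libraries and more numerous in all 3 wild-type libraries. Read numbers also depend on transcript length, which was 2625 bases for Pnpla2 and 871 for G0s2. Per kilobase of transcript, Pnpla2 (33.2 to 62.6 CPM) lay below G0s2 (87.0 to 218 CPM) in every library of both groups. Only the difference between the groups in this ratio is therefore read. The mean log2 ratio was −0.61 ± 0.44 in heterozygous and 0.52 ± 0.44 in wild-type livers (SD, n = 3 each), a difference of −1.13. Pnpla2 reads per Abhd5 read numbered 2.65, 3.02 and 4.48 in heterozygous replicates and 6.35, 5.90 and 6.06 in wild-type replicates. The wild-type libraries were close to each other in this ratio (log2 ratio 2.61 ± 0.05), and the heterozygous libraries were lower and more spread (1.72 ± 0.39). Like the fold changes these ratios come from the contrast that chose the genes, and no test was made.

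**Figure D3:**
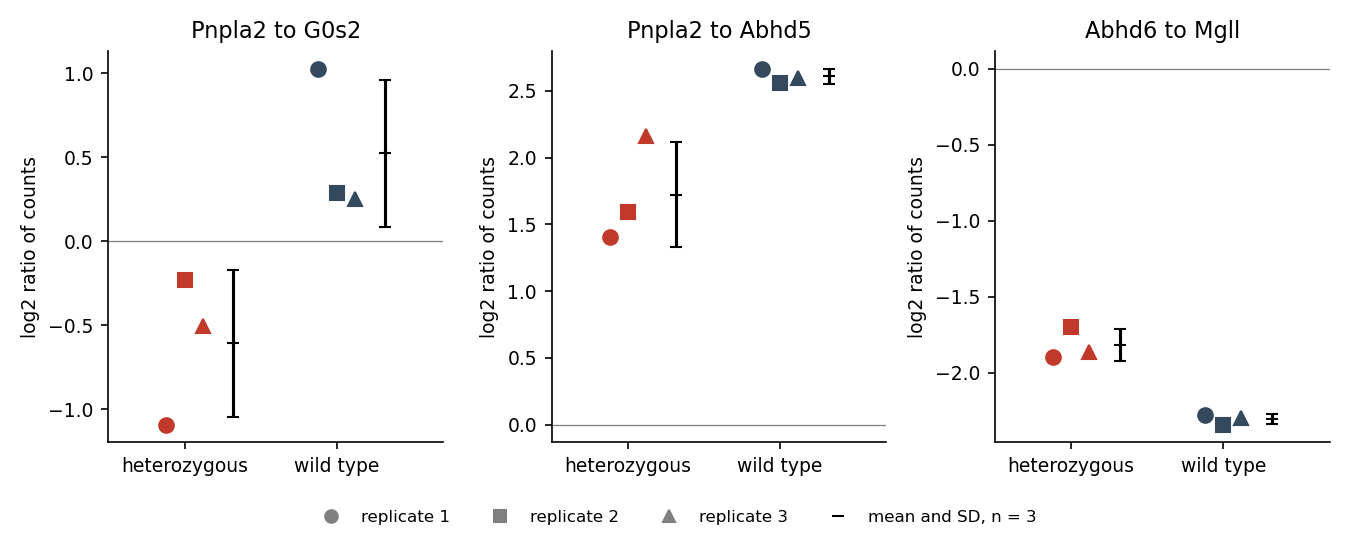
log2 ratio of counts (y axis) for Pnpla2 to G0s2, Pnpla2 to Abhd5 and Abhd6 to Mgll in each heterozygous and wild-type library, with the mean and SD (n = 3 each). The groups are apart in all 3 ratios, with Pnpla2 to G0s2 below 0 in the heterozygous and above 0 in the wild-type libraries. Counts are not scaled by transcript length, so the place of 0 has no meaning for the relative level of the genes.

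Mgll, the main monoacylglycerol lipase of most tissues, acts on the same substrate as Abhd6 and was less different between the groups. It measured 264, 217 and 231 CPM in heterozygous replicates 1, 2 and 3 and 199.8, 206 and 234 CPM in wild-type replicates 1, 2 and 3. The groups overlapped through wild-type replicate 3, and the log2 fold change was 0.15 ± 0.12 (95% interval −0.12 to 0.43). The Abhd6 share relative to Mgll was higher in each heterozygous library. There were 0.268, 0.308 and 0.275 Abhd6 reads per Mgll read in heterozygous replicates 1, 2 and 3, against 0.206, 0.197 and 0.204 in wild-type replicates 1, 2 and 3, a difference of 0.48 in the mean log2 ratio.

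Lipe, the gene of hormone-sensitive lipase, was expressed at 20.5, 18.8 and 24.4 CPM in heterozygous replicates and at 21.4, 28.6 and 21.9 CPM in wild-type replicates. The log2 fold change of −0.17 ± 0.16 (95% interval −0.52 to 0.18) was within the spread between libraries. Ces1d encodes a carboxylesterase of the endoplasmic reticulum, also called triacylglycerol hydrolase, that mobilises triglyceride for secretion in lipoproteins. It measured 989, 960.2 and 846 CPM in heterozygous replicates 1, 2 and 3 and 613, 571 and 854 CPM in wild-type replicates 1, 2 and 3. Only wild-type replicate 3 reached the heterozygous range, and it lay just above heterozygous replicate 3. The log2 fold change was 0.46 ± 0.17 (95% interval 0.08 to 0.83), with an edgeR adjusted p of 0.266, and it was 0.66 without wild-type replicate 3. Ces1d has close copies beside it in the genome, so its counts are uncertain where a read matched several copies.

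Daglb, Faah and Napepld, genes of the set that make or break endocannabinoids, were less far apart than Abhd6. Daglb, which encodes the lipase that makes 2-arachidonoylglycerol, measured 30.9, 30.6 and 27.7 CPM in heterozygous replicates and 24.9, 37.4 and 31.6 CPM in wild-type replicates. The wild-type libraries spanned the heterozygous ones, and the log2 fold change of −0.07 ± 0.15 changed sign to 0.08 without wild-type replicate 2. Faah, whose product hydrolyses anandamide and other fatty acid amides, measured 219, 209 and 234 CPM in heterozygous replicates and 178, 195 and 199 CPM in wild-type replicates. The groups did not overlap, but the gap was small and the interval of the log2 fold change (0.21 ± 0.11, −0.03 to 0.46) included 0. Napepld, which encodes the phospholipase D that makes anandamide, was near the limit of these libraries with 27 to 39 reads in each heterozygous and 22 to 30 reads in each wild-type library. Its level was 2.27, 2.24 and 1.55 CPM in heterozygous replicates and 1.34, 1.36 and 1.64 CPM in wild-type replicates, with overlapping groups and a log2 fold change of 0.48 ± 0.29 (95% interval −0.19 to 1.14). Over the set, the intervals of 7 of the 10 genes included 0, and edgeR adjusted p-values of the 9 genes above the threshold ran from 0.0539 to 0.916.

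**Figure D4:**
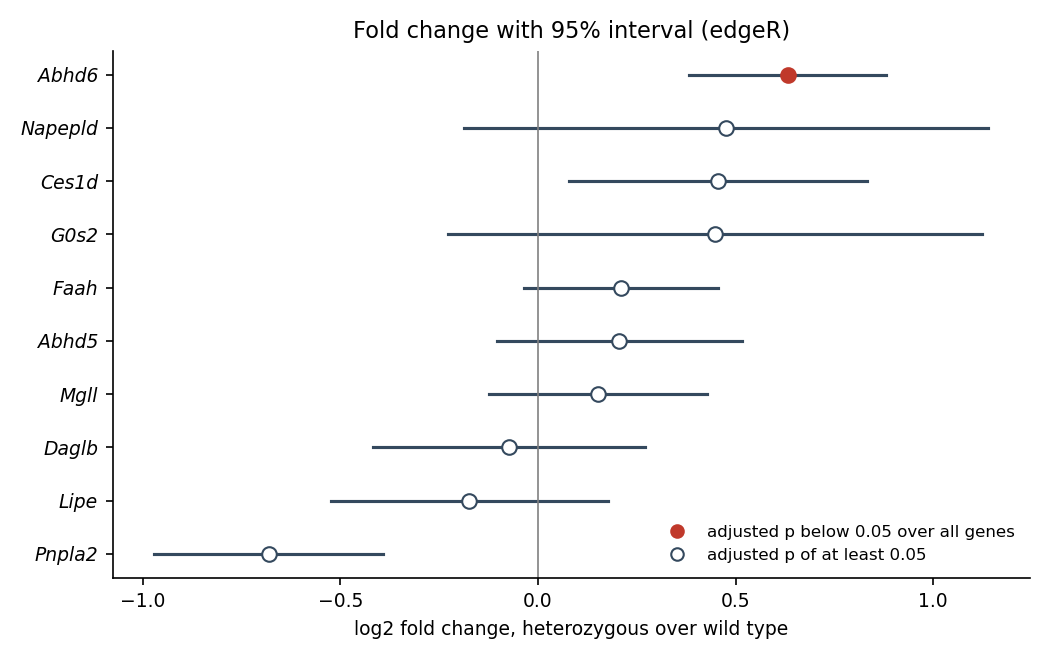
log2 fold change, heterozygous over wild type, of each gene with its 95% interval from edgeR; the filled point has an adjusted p below 0.05 over all tested genes. Abhd6 (0.63) and Pnpla2 (−0.68) lie at opposite ends, and the interval of Ces1d (0.08 to 0.83) also lies above 0.

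Per kilobase of transcript, the level of these genes spanned a wide range in both groups. Over all 6 libraries Ces1d averaged 402 CPM per kilobase and G0s2 149.6, followed by Mgll at 56.4, Faah at 53.7, Pnpla2 at 47.7 and Abhd6 at 24.8. Abhd5 averaged 8.63, Daglb 6.56, Lipe 6.26 and Napepld 0.466 CPM per kilobase. Mgll, Faah and Pnpla2 overlapped with their neighbours in this order over the libraries, as did Abhd5, Daglb and Lipe, while the other neighbours did not. In heterozygous livers Pnpla2 averaged 36.6 ± 5.22 CPM per kilobase and Abhd6 30.1 ± 1.63, against 58.7 ± 3.99 and 19.4 ± 1.75 in wild-type livers (SD, n = 3 each). The level of Abhd6 was thus nearer to that of Pnpla2 in heterozygous than in wild-type livers. With coding length in place of transcript length the order of the 10 genes was the same.

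Genes with the pattern most like Abhd6 were sought among 8518 other tested genes whose mean log2 CPM reached 3 or more. By Pearson's r of log2 CPM over the 6 libraries, the closest 5 were Eml3 (r = 0.989), Hdhd3 (0.982), Tardbp (0.982), Trim2 (0.979) and Coa3 (0.979). Their log2 fold changes ran from 0.27 (Tardbp) to 0.65 (Hdhd3), and none had an edgeR adjusted p below 0.05. After subtraction of each group's mean, the closest 5 were Phf5a (0.987), Slc35c2 (0.987), Slbp (0.980), Frg1 (0.980) and Pdf (0.979), with log2 fold changes between −0.20 (Slbp) and 0.13 (Pdf). With 6 libraries such values of r describe these libraries only. In the RefSeq gene order the nearest tested neighbours of Abhd6 are Dnase1l3, which encodes a secreted DNase, and Pxk. Dnase1l3 measured 77.3 ± 6.58 CPM in heterozygous and 69.3 ± 7.93 CPM in wild-type livers, and Pxk 34.1 ± 3.13 and 43.8 ± 8.44 CPM (log2 fold changes 0.16 ± 0.12 and −0.36 ± 0.15; edgeR adjusted p = 0.683 and 0.351). RefSeq also places lncRNAs over Abhd6, Mgll and Lipe and a pseudogene and a miRNA over Napepld, none of which has a row in the count table. Since the strand setting of the counter is not given in the sources used here, reads of such partners may be among those of these genes.

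The wider pathways were read from lists of related genes. Across 8 lists of related genes, 118 of 132 genes in the table were tested, and edgeR called 0 higher and 1 lower, against 0.0236% and 0.559% of all tested genes, so that no more is read from this count. DESeq2 called 1 higher and 9 lower, against 0.645% and 3.56% of all tested genes. Without an adjustment 24 of the 118 had an edgeR p below 0.05, against 13.2% of all tested genes.

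Other triglyceride and cholesteryl ester hydrolases had 19 tested genes, none called in edgeR, with a median log2 fold change of 0.16. Fold changes were positive for 14 and negative for 5, against 51.0% positive over all tested genes. Ces1f, another liver carboxylesterase, measured 577 ± 59.3 CPM in heterozygous and 447 ± 20.9 CPM in wild-type livers without overlap (0.37 ± 0.12, edgeR adjusted p = 0.203). Ces1e measured 269.8 ± 83.3 and 193 ± 41.0 CPM, and Ddhd1, a phospholipase gene, 19.8 ± 2.23 and 25.4 ± 2.47 CPM. The Ces1 genes are close copies, so their counts are uncertain as for Ces1d. Pnpla3, the nearest relative of ATGL and a gene tied to fatty liver in humans, was low at 2.69 ± 1.81 and 2.92 ± 2.40 CPM (log2 fold change −0.13 ± 0.79).

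Among 16 tested regulators of ATGL and of droplet lipolysis, edgeR called none, and the median log2 fold change was 0.05. The droplet coat genes Plin2 (0.08 ± 0.12) and Plin5 (−0.08 ± 0.18) and the ATGL inhibitor gene Hilpda (−0.03 ± 0.41) had log2 fold changes smaller than their SE and, like Prkaca, the kinase subunit that drives lipolysis (0.25 ± 0.14), and Hsd17b13 (0.23 ± 0.15), overlapped between groups. Plin2, Plin5 and Hilpda, and likewise Pnpla3, Cnr1, Cnr2 and Abhd8, were picked after their values were seen.

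The other endocannabinoid genes had 10 negative and 7 positive fold changes among 17 tested, against 51.0% positive over all tested genes. Their median was −0.28, and edgeR called none. The groups lay apart with heterozygous livers lower for 7 of the 17, against 11.3% of all tested genes. Fabp5, a fatty acid carrier that also carries anandamide and is among the lipid-associated macrophage markers, measured 7.75, 12.2 and 10.8 CPM in heterozygous replicates and 35.6, 20.2 and 21.9 CPM in wild-type replicates (−1.34 ± 0.26, edgeR adjusted p = 0.0602). Ptpn22, a phosphatase gene of leukocytes, measured 1.80 ± 0.312 and 4.08 ± 0.441 CPM, and Gdpd1, a lysophospholipase D gene, 0.806 ± 0.204 and 2.23 ± 0.233 CPM. The monocyte and macrophage markers given above were lower in the same libraries, and their part in these values was not tested. The receptor gene Cnr2 was low (2.79 ± 0.403 and 2.16 ± 0.204 CPM). Cnr1 did not pass the filter, at 0 CPM in all heterozygous libraries and only 0.109 to 0.328 CPM in wild-type libraries.

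Relatives of Abhd6 differed less between the groups. Among 23 other tested genes of the alpha/beta hydrolase family, log2 fold changes lay between −0.32 (Abhd12) and 0.42 (Abhd8), with a median of 0.06 and none called in edgeR. Abhd12, a lysophosphatidylserine lipase that also splits 2-arachidonoylglycerol, measured 36.0 ± 0.846 CPM in heterozygous and 45.0 ± 6.50 CPM in wild-type livers. Ephx1, a microsomal epoxide hydrolase, measured 816 ± 121 and 641 ± 76.3 CPM, and Abhd18 17.3 ± 1.48 and 14.3 ± 0.167 CPM. The 5 tested relatives of ATGL in the patatin-like family likewise held no call, with log2 fold changes from −0.13 (Pnpla3) to 0.32 (Pla2g6) and Pnpla6 at 0.16 ± 0.13 and Pnpla8 at 0.09 ± 0.12. These differences in size between genes are a description and were not tested.

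**Figure D5:**
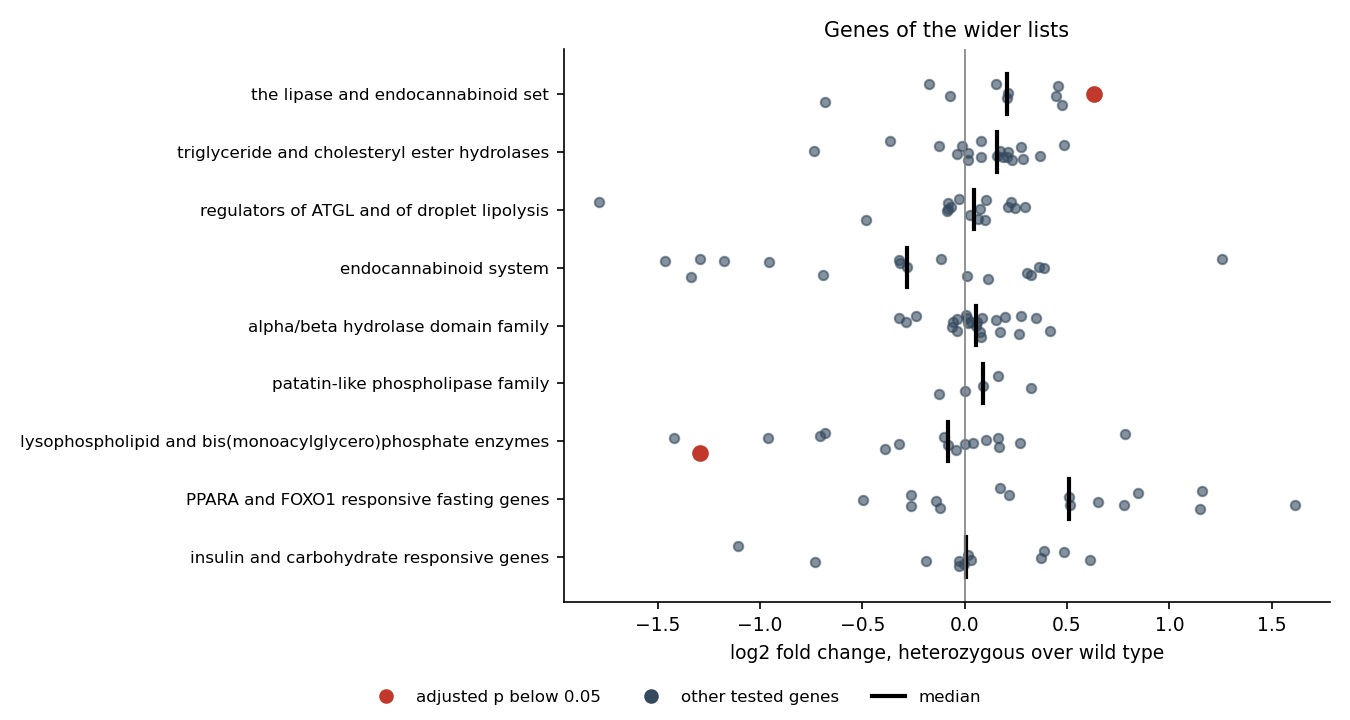
log2 fold change, heterozygous over wild type, of each tested gene in the set and in 8 wider lists, with the median of each list as a bar and genes with an edgeR adjusted p below 0.05 in red. The red points are Abhd6 in the set and Pld4 among the lysophospholipid enzymes, and the medians lie between −0.28 and 0.51.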

How the data were processed

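Libraries were made from 500 ng of liver RNA with a stranded mRNA kit, per the labels' protocols. The submitters' processing notes name GRCm39 and the tools Trimmomatic 0.36, HISAT2 2.2.1.0 and HTSeq 0.9.1. Annotation and strand setting: not given in the sources used here. Each deposited value is a raw count per gene symbol, with no normalization, in 1 column per library, as read from the values; 0 rows lacked a gene name. Groups came from the sample titles. The labels do not tie samples to separate animals, so a p-value here reflects only how these samples vary, which may be technical.

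In R 4.3.3, edgeR 4.0.16 was run on all symbols (filterByExpr, TMM, robust glmQLFit and glmQLFTest, no covariate), with Benjamini-Hochberg adjustment over all tested genes at 0.05. Each SE was derived from the log2 fold change and its F statistic. Alternatives were RLE and upper-quartile scaling, no filter, at least 1 CPM in 3 libraries, DESeq2 1.42.0, limma-voom (limma 3.58.1), a non-robust fit, a replicate block and each library left out. Leaving out 2 libraries together was chosen after seeing the data. Lengths are those of the longest GENCODE M21 transcript paired with a RefSeq mRNA. No 2 libraries agreed within sampling noise. On simulated counts for this comparison (12568 genes tested), 68.3% of 101 genes changed 2-fold and 90.3% of 93 changed 4-fold were recovered. There, 13 genes simulated without a change were also called.

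The gene set, lists and tests were chosen with earlier results of these data known. Named genes were the 10 members, called genes and the 3 with the smallest p in each list, the 5 most like Abhd6 by each measure, and neighbours of Abhd6. Of the genes this rule gives, 2 are not reported here.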

Additional observations from a re-analysis of the deposited data

How the results depend on the processing

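The number of genes called by edgeR, 74 of 12706, was 37 with upper-quartile scaling, 48 with at least 1 CPM in 3 libraries, 211 with no filter on low counts, 534 in DESeq2, 20 with a non-robust fit, 0 in limma-voom (1686 with an unadjusted p below 0.05) and 0 to 122 without single libraries. The cause was not tested. The set's count of 1 called gene was 2 in DESeq2 and with no filter on low counts, 0 with RLE scaling, upper-quartile scaling, at least 1 CPM in 3 libraries, limma-voom and a non-robust fit, and 0 to 1 without single libraries. The wider lists' count of 1 was 2 with no filter, 10 in DESeq2, 0 in limma-voom and 0 to 3 without single libraries. Abhd6 missed the threshold at log2 fold changes of 0.64 (RLE), 0.63 (upper-quartile, 1 CPM, limma-voom and non-robust) and 0.60 to 0.71 (without single libraries, edgeR adjusted p 0.0549 to 0.218). Pnpla2 passed it at −0.66 with no filter and −0.67 in DESeq2, and ran from −0.80 to −0.61 without single libraries. Daglb ran from −0.19 to 0.080 without single libraries, changing sign without wild-type replicate 2. Without heterozygous replicate 2 and wild-type replicate 1 together, edgeR called 4 genes, 0 of the set (Abhd6 0.61) and 0 in the lists. Log2 fold changes of the other 7 genes kept their sign and their side of the threshold in all 15 alternatives, and the differences in the 3 log2 ratios kept their sign in 7 alternatives each (−1.32 to −0.88 for Pnpla2 to G0s2, −1.11 to −0.73 for Pnpla2 to Abhd5 and 0.42 to 0.52 for Abhd6 to Mgll).

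With the replicate number as a block edgeR called 0 genes (1427 with an unadjusted p below 0.05), 0 of the set and 0 in the lists, with Abhd6 at 0.63. Deviations of same-numbered libraries correlated at −0.21, −0.31 and 0.19, so the numbers were not taken as pairs. Depth limits Napepld most, at 22 to 39 reads a library.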

Other observations

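Enzymes of lysophospholipids and of bis(monoacylglycero)phosphate, a lipid on which ABHD6 also acts, held the 1 called gene of the wider lists. Pld4, a lysosomal exonuclease of the phospholipase D family in myeloid and dendritic cells, fell to 14.0, 13.0 and 17.2 CPM in heterozygous replicates, against 30.4, 44.2 and 33.8 CPM in wild-type replicates (log2 fold change −1.29 ± 0.17, edgeR adjusted p = 0.0308). Of 17 tested genes 10 had a negative fold change, against 51.0% positive over all tested genes. For 5 of the 17 the heterozygous libraries all lay lower, against 11.3% of all tested genes. Lpcat2, an acyltransferase gene of inflammatory cells, measured 3.82 ± 1.08 CPM in heterozygous and 10.3 ± 3.89 CPM in wild-type livers, and Gpcpd1, a glycerophosphocholine phosphodiesterase gene, 49.2 ± 7.49 and 95.7 ± 25.6 CPM (edgeR adjusted p = 0.0734 and 0.0778). The monocyte and macrophage markers were lower in the same libraries, and their part was not tested.

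Genes that respond to fasting through PPARA and FOXO1 had a median log2 fold change of 0.51 over 15 tested genes. Of these 10 were positive, against 51.0% of all tested genes, and none was called in edgeR. The thioesterase gene Acot1 measured 43.3, 39.1 and 47.4 CPM in heterozygous replicates and 18.2, 20.1 and 33.8 CPM in wild-type replicates (edgeR adjusted p = 0.141). Fgf21, a hormone gene induced by fasting, measured 3.87 ± 0.902 and 2.25 ± 0.661 CPM. Among 12 genes that respond to insulin and carbohydrate, 6 were positive and 6 negative with a median of 0.00568 and none called in edgeR. Thrsp, a lipogenic gene, measured 139 ± 38.1 and 299.5 ± 64.9 CPM (edgeR adjusted p = 0.0752), against Srebf1 at 641 ± 95.2 and 419 ± 110 CPM and Mlxipl at 703 ± 121 and 542 ± 37.8 CPM.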
